A study of Mus musculus with 2 samples.

Results

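The immunoglobulin heavy chain, light chain and joining chain probes of a mouse array were compared between 2 cell fractions sorted from Peyer's patches, the lymphoid follicles in the wall of the small intestine. Probes were taken by gene name, that is every non-control probe whose name starts with Igh, Igk, Igl or Igj, or is Jchain. The 2 probes of Ighmbp2, a helicase gene, were left out. This gave 15 of 56602 probes, and 9 of the 15 were well above background on at least 1 array, against 31583 of 56602 probes in all. The rule used no signal comparison between the fractions. For 2 of the 15, both of Iglon5, only the first letters of the name match, since Iglon5 encodes a cell adhesion protein and not an antibody chain.

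The S100A4-positive fraction and the S100A4-negative fraction came from S100A4-GFP transgenic mice on the C57BL/6 strain, so both fractions carried the reporter transgene. Patches were digested with dispase II, collagenase D and DNase I, and cells were separated by flow cytometric sorting on S100A4. RNA of 1 sample per fraction was hybridised to 1 array each, and the question was how the expression profiles of the fractions differ. The promoter of the transgene, the number and age of the mice, and any further sort gate are not given in the sources used here. Since each fraction has 1 array, no difference below was tested or checked by a replicate. Errors are those the scanner software gives for a probe and do not cover variation among animals, sorts or labellings.

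An antibody is built from heavy chains paired with kappa or lambda light chains. Each chain has a variable region, assembled in a developing B cell by joining gene segments, and a constant region that for the heavy chain sets the class: mu for IgM, delta for IgD, gamma for IgG, epsilon for IgE and alpha for IgA. Naive B cells carry mu and delta chains on their surface, and plasma cells secrete antibody in bulk. Peyer's patches are a main site where B cells switch to IgA, and the joining chain links IgA or IgM units into the polymers that are carried across the gut epithelium.

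The probe sequences are shown because some of the variable segment probes carry a recognisable stretch of the chain. Another reason is that a probe named for a variable segment family (Igh-VJ558) lies among the constant region probes of its locus. All are 60 bases long, 5′ to 3′, as listed in the array files, and positions (mm9 mouse build) are also those listed there. Capitals mark TATTNCTGT (N is any base), a stretch chosen because it spans, where N is A or T, codons for tyrosine, then tyrosine or phenylalanine, then the cysteine just before the most variable loop of the chain. A sequence with no capitals does not hold those letters. The fifth sequence, a probe that the files list by its description as kappa variable 4-72, is set beside the probe named Igkv4-72.
Ighg3, chr12:114596396-114597927, minus strand: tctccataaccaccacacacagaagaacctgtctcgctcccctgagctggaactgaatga
Igh-VJ558, heavy chain complex, chr12:114498348-114498407, minus strand: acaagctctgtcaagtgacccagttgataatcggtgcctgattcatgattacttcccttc
Ighv1-33, chr12:117247846-117247905, minus strand: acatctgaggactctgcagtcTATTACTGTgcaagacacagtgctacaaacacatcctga
Igkv4-72, chr6:69176852-69176911, minus strand: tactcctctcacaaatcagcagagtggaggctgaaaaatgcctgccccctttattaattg
Kappa variable 4-72, by description, chr6:69176986-69177045, minus strand: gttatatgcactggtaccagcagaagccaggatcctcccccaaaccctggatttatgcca
Igkv14-126, chr6:67846583-67846642, plus strand: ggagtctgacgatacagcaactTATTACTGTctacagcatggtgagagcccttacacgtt
Iglv1, chr16:19063348-19085165, minus strand: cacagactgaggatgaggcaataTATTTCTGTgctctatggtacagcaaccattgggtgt
The ends of the Ighg3 probe lie 1532 bases apart and those of the Iglv1 probe 21818 bases apart on the genome, although each probe is 60 bases long. The stretch was searched on both strands. It occurs in 3 of the 15 probes, against 187 of all 56602 probes (0.33%), and its reverse complement in 0 of the 15 against 127 of all. This is a description of the letters. The exon each probe lies in was not analysed here.

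The share of the 59305 non-control spots that passed the software's background test was 52.3% on the S100A4-positive array and 53.3% on the S100A4-negative array, and 0 were saturated. Signals are the software's background-subtracted intensities. Differences are log2, S100A4-positive minus S100A4-negative, after centring each array on its 75th percentile, so folds differ from the ratio of the printed signals. S100a4 itself had a signal of 119341 on the S100A4-positive array and 1057 on the S100A4-negative array, 175-fold higher. Where a probe was not well above background on 1 array its fold is a bound, written as "at least", set by the higher of its own signal and the lowest signal well above background on that array (15.7 on the S100A4-positive array and 16.1 on the S100A4-negative array).

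The 9 probes that could be read all had lower values in the S100A4-positive cells. Of these, 8 were lower by 2-fold or more, 6 of them by 4-fold or more, and 0 were higher by 2-fold. Over all 31583 probes above background, 14.8% were lower by 2-fold or more, 4.38% by 4-fold or more, and 20.9% were higher by 2-fold or more. The median log2 difference of the 9 was -3.63 (range -7.66 to -0.33), against 0.06 over all probes. The probe under 2-fold was Iglon5, not an antibody chain gene, and without it 8 of 8 were lower by 2-fold or more, with a median of -3.91. 7 of the 9 were above background on both arrays, 2 on the S100A4-negative array alone and 0 on the S100A4-positive array alone. Of the 7, 6 were lower by 2-fold or more, while the other 2 stand at bounds that could not come out higher. Of all 31583 probes, 25817 were above background on both arrays. Another 3154 were so on the S100A4-negative array alone and 2612 on the S100A4-positive array alone. In such bulk samples fewer cells of a type and less RNA per cell cannot be told apart.

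The 2 probes grouped as heavy constant were both lower, by very different amounts. Ighg3, the constant region of IgG3, had a signal of 35.5 in S100A4-positive cells and 5792 in S100A4-negative cells, a log2 difference of -6.72 ± 0.24 or 105-fold lower. The ends of this probe lie 1532 bases apart on the genome. Which part of the Ighg3 transcripts it reads was not analysed here, so its value need not hold for all of them. The Igh-VJ558 probe that the files describe as I alpha polypeptide (chr12:114503159-114503217) was dim on both arrays, with 24.4 in S100A4-positive cells and 101 in S100A4-negative cells, a log2 difference of -1.42 ± 0.28 or 2.67-fold lower. With normexp background correction and an offset of 50, this probe came to -0.42, under 2-fold. It was grouped as constant by its I alpha description. It lies apart from the alpha constant region probes at chr12:114493535-114493594 and chr12:114496985-114497044. Whether it reads a constant region was not analysed here. Medians given below for heavy constant cover this probe and Ighg3 unless another grouping is stated.

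Among the 3 probes grouped as heavy variable, 2 could be read and both were lower. Ighv1-33, a segment of the large VH1 family, had 15.2 in S100A4-positive cells, not well above background, and 4946 in S100A4-negative cells, so it was at least 203-fold lower. Here the fold is a bound, so its true size is not known. The Igh-VJ558 probe described as heavy chain complex had 1294 in S100A4-positive cells and 19235 in S100A4-negative cells, a log2 difference of -3.26 ± 0.20 or 9.58-fold lower. VJ558 is an older name of the VH1 family, yet this probe lies 2749439 bases from the Ighv1-33 probe. It lies 1304 bases from a probe for the constant region of IgA and 4752 bases from the I alpha probe, at the constant end of the locus. It was grouped as variable by its gene name. Whether it reads a variable or a constant region was not analysed here. Medians given below for heavy variable among the probes taken by name include this probe unless another grouping is stated. The Ighv1-33 probe is itself listed beyond heavy variable 1-85 (chr12:117238426-117238485), not between 1-31 (chr12:116067618-116067677) and 1-36 (chr12:116118275-116118334). Heavy variable 1-2, of the same family, lies nearer to the heavy chain complex probe, at chr12:115707350-115707409. The Ighv1-33 probe also shares a run of 20 or more bases with 1 probe of an uncharacterized gene. The third probe grouped as heavy variable, an Igh-VJ558 probe of a variable region, was not well above background on either array. It had 4.26 in S100A4-positive cells and 9.63 in S100A4-negative cells.

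The kappa probes split between 2 that were read and 3 that were not. Igkv14-126 had 3.34 in S100A4-positive cells, not well above background, and 449 in S100A4-negative cells, so it was at least 18.4-fold lower. Igkv4-72 had 52.4 in S100A4-positive cells and 280 in S100A4-negative cells, a log2 difference of -1.78 ± 0.23 or 3.44-fold lower, and -0.73 with normexp background correction. Both signals of Igkv4-72 were thus seen, but the dimmer one is close to background. Igkv4-53 (5.65 in S100A4-positive cells, 3.38 in S100A4-negative cells), Igkv4-55 (3.39 in S100A4-positive cells, 3.44 in S100A4-negative cells) and Igkv6-15 (3.74 in S100A4-positive cells, 4.70 in S100A4-negative cells) were not well above background on either array.

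A lambda variable probe and the joining chain probe were among the lower ones. Iglv1, a variable segment of the lambda chain, had 295 in S100A4-positive cells and 10141 in S100A4-negative cells, a log2 difference of -4.47 ± 0.20 or 22.2-fold lower. Jchain had 1976 in S100A4-positive cells and 37898 in S100A4-negative cells, a log2 difference of -3.63 ± 0.20 or 12.4-fold lower. Its probe lies at chr5:88949919-88949978. Both transcripts were bright in S100A4-negative cells and still well above background in S100A4-positive cells. Igll1, a component of the surrogate light chain of developing B cells, was below that limit in both, with 3.30 in S100A4-positive cells and 3.26 in S100A4-negative cells. Iglon5 had 38.6 in S100A4-positive cells and 75.5 in S100A4-negative cells, a log2 difference of -0.33 ± 0.26, and its second probe was not well above background on either array.

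The threshold on background decided which probes counted. Just inside it was the Iglon5 probe, with a highest signal of 75.5, and just outside was the Igh-VJ558 variable probe with a highest signal of 9.63, both in S100A4-negative cells.

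A further 231 probes carry an immunoglobulin chain in the files' description but a transcript identifier as gene name, so that the naming rule does not take them. They were added after values had been seen and serve here to set the 15 in their locus. Of the 231, 217 were well above background on at least 1 array, 112 of them on both, 105 on the S100A4-negative array alone and 0 on the S100A4-positive array alone. Of the 217, 208 were lower by 2-fold or more, 192 by 4-fold or more, and 1 was higher by 2-fold or more. Over all 31583 probes above background, 14.8% were lower by 2-fold or more, 4.38% by 4-fold or more, and 20.9% higher by 2-fold or more. The 105 stand at bounds that could not come out higher. Among the 112 read on both arrays, 110 were lower by 2-fold or more and 1 was higher by 2-fold or more. The median of the 217 was -4.66 (range -7.92 to 1.64), with bounds for the 105. With normexp background correction 184 were lower by 2-fold or more and the median was -3.15, and with scaling on the spike-in controls the median was -7.08. Segments of a family are similar in sequence, so 1 transcript may bind several of these probes and their values are not independent.

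For several segments the files hold both kinds of probe, and these did not always read alike. The Igkv4-53, Igkv4-55 and Igkv6-15 probes, dark on both arrays, have partners named by description that were bright. Kappa variable 4-53 had 24.7 in S100A4-positive cells and 7554 in S100A4-negative cells (197-fold lower), and kappa variable 4-55 had 111 in S100A4-positive cells and 17507 in S100A4-negative cells (102-fold lower). Kappa variable 6-15 had 463 in S100A4-positive cells and 6467 in S100A4-negative cells, a log2 difference of -3.17. The longest run of letters a dark probe shares with its bright partner is 6 bases. Kappa variable 4-72 was 90.3-fold lower by the partner printed above, with 54.3 in S100A4-positive cells and 7614 in S100A4-negative cells. The Igkv4-72 probe, with which that partner shares 7 bases, was 3.44-fold lower. The Igkv4-72 probe does share a run of 20 or more bases with 4 probes of other segments, kappa variable 1-133, 1-132, 1-122 and 2-109. Which segment its signal comes from was not tested. In contrast, the Iglv1 probe and its partner share 54 bases. The partner had 358 in S100A4-positive cells and 6128 in S100A4-negative cells, a log2 difference of -3.46 ± 0.20. The Iglv1 probe stood at -4.47 ± 0.20, so these probes too differed by more than their errors. The partner of Igkv14-126, with 40 shared bases, had 4.21 in S100A4-positive cells, not well above background, and 643 in S100A4-negative cells, at least 26.3-fold lower.

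Constant region probes were lower throughout, by very different amounts. Of 19 such probes 18 were above background, 16 on both arrays and 2 on the S100A4-negative array alone. All 18 were lower by 2-fold or more and 13 by 4-fold or more, and their median was -3.84. The lambda constant 3 probes lie at the 2-fold limit: 1 came to -0.95 with normexp correction, and the other to -0.99 when the 75th percentile was taken over probes above background on both arrays. The epsilon probe was the exception, with 3.66 in S100A4-positive cells and 16.4 in S100A4-negative cells, not well above background on either array.

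The mu chain of IgM kept a high signal in S100A4-positive cells. Its 3 probes had 2871, 15362 and 6238 in S100A4-positive cells, against 29748, 86246 and 25563 in S100A4-negative cells, for log2 differences of -2.74, -1.86 and -1.40, each ± 0.20. The delta chain of IgD, which naive B cells carry beside IgM, was lower by more. Its probes had 208 and 357 in S100A4-positive cells, against 7714 and 33531 in S100A4-negative cells, for log2 differences of -4.58 ± 0.21 and -5.92 ± 0.20. The gamma chains of IgG were also lower at every probe that could be read. The gamma 1 probe had 196 in S100A4-positive cells and 10104 in S100A4-negative cells, 33.3-fold lower. The gamma 2B probe, spotted 10 times on each array, had 3362 in S100A4-positive cells and 97306 in S100A4-negative cells, 19.1-fold lower, and the log2 SD over its spots was 0.06 in S100A4-positive cells and 0.07 in S100A4-negative cells. The gamma 3 probe, separated by 14 bases from the Ighg3 probe, had 10.9 in S100A4-positive cells, not well above background, and 4724 in S100A4-negative cells, at least 193-fold lower.

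Probes of the same heavy chain gene differed in size beyond their errors, by 1.34 on the log2 scale for mu and for delta and by more for gamma 2C and alpha. The 3 gamma 2C probes lie close together (chr12:114525496-114525732) and had 3899, 782 and 11.1 in S100A4-positive cells, against 64801, 41125 and 5356 in S100A4-negative cells. The first 2 stood at -3.42 and -5.08, and the third, not well above background in S100A4-positive cells, was at least 219-fold lower. The alpha chain of IgA had 46181 in S100A4-positive cells and 187406 in S100A4-negative cells at chr12:114496985-114497044, a log2 difference of -1.39 ± 0.20 or 2.61-fold lower. At chr12:114493535-114493594, 3391 bases further along in the direction of transcription, alpha had 83.5 in S100A4-positive cells and 12090 in S100A4-negative cells, a log2 difference of -6.54 ± 0.21 or 93.3-fold lower. The gap between the 2 alpha probes is 5.16 on the log2 scale, far beyond their errors. Heavy chain genes hold separate ends for the secreted and the membrane form of the chain, as background, and which form each alpha probe reads was not analysed here.

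The light chain constant regions differed between lambda genes as well. The kappa constant probes, 2 of 2 lower, had 10362 and 11092 in S100A4-positive cells, against 129606 and 85909 in S100A4-negative cells, for log2 differences of -3.01 and -2.32, each ± 0.20. Lambda constant 1 had 638 in S100A4-positive cells and 33077 in S100A4-negative cells, 33.4-fold lower, whereas the 2 overlapping lambda constant 3 probes had 17014 and 15993 in S100A4-positive cells, against 53842 and 49713 in S100A4-negative cells. The first of these was 2.04-fold lower and the other differed from it by 0.03 on the log2 scale, the smallest differences among the constant region probes.

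Variable segment probes were lower in nearly every family. Of 212 such probes 199 were above background. Of these, 190 were lower by 2-fold or more, 1 was higher by 2-fold or more, and 8 had a difference or bound under 2-fold. Over all probes above background, 14.8% were lower and 20.9% higher by 2-fold or more. Among the 8 under 2-fold only heavy variable 1-80 was read on both arrays. The others were dark in S100A4-positive cells and stand at bounds, so the true size of their differences is not known. Only 96 of the 199 were above background on both arrays, the other 103 on the S100A4-negative array alone, where a probe could not come out higher. All of the 96 except heavy variable 1-80 and 13-2 were lower by 2-fold or more. Kappa segment probes had a median of -5.33, with 98 of 99 at least 2-fold lower. Heavy segment probes had a median of -3.87, with 90 of 98 at least 2-fold lower. For the many segments dark in S100A4-positive cells these are bounds, so the order of the 2 medians carries no comparison of size. Over the probes above background on both arrays the medians were -5.74 for kappa and -4.02 for heavy segments.

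Within the kappa segments the values ran from -7.92 to -0.38, with bounds for those dark in S100A4-positive cells. Among segments above background on both arrays, kappa variable 4-63 stood lowest, with 36.8 in S100A4-positive cells and 13803 in S100A4-negative cells, 242-fold lower. Kappa variable 4-53, 17-121, 4-60 and 4-80 followed at -7.62, -7.53, -7.13 and -7.08. The smallest differences among segments above background on both arrays were those of kappa variable 5-48 (-2.45), 10-96 (-2.61), 6-15 (-3.17), 2-109 (-3.44) and 4-54 (-3.45). Kappa variable 10-96 had 969 in S100A4-positive cells and 9189 in S100A4-negative cells. Other segments with a high mean log2 signal over both arrays were 4-71 (333 in S100A4-positive cells, 32383 in S100A4-negative cells, -5.97), 12-46 (-4.56), 12-44 (-4.93) and 6-15. By family, kappa 4 had 24 segment probes read and all 24 at least 4-fold lower, with a median of -6.50, or -6.60 over the 20 above background on both arrays.

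Heavy segments ran from -7.17, a bound, to 1.64. The lowest above background on both arrays were heavy variable 1-66 (-6.51), 1-85 (-6.50), 1-47 (-6.44), 1-22 (-6.23) and V1-11 (-5.97), all of the family to which Ighv1-33 belongs. That family had 47 segment probes read, 44 of them at least 2-fold lower, with a median of -4.41, or -4.37 over the 26 above background on both arrays. Segments with a high mean log2 signal over both arrays included V14-3, with 474 in S100A4-positive cells and 10633 in S100A4-negative cells (-3.85), V1-7 (-3.54), 1-77 (-3.52), 1-52 (-4.04) and 1-64 (-5.53). The smallest differences were those of 14-2 (-2.34), 6-3 (-2.24), 6-6 (-1.88) and 1-80, which had 570 in S100A4-positive cells and 1452 in S100A4-negative cells (-0.72 ± 0.20). Heavy variable 13-2 was the only immunoglobulin probe at least 2-fold higher, with 61.9 in S100A4-positive cells and 30.7 in S100A4-negative cells, a log2 difference of 1.64 ± 0.30 at signals close to background. With normexp background correction 0 were at least 2-fold higher. Lambda variable 3 was at least 30.2-fold lower, with 16.9 in S100A4-positive cells, not well above background, and 791 in S100A4-negative cells.

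The stretch TATTNCTGT is present in 23 of 101 kappa, 6 of 109 heavy and 1 of 2 lambda segment probes and in 0 of 19 constant region probes. The 30 segment probes that hold it and were read had a median of -4.81, and the 169 without it had a median of -4.66.

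Genes that act on or with antibody chains gave a mixed picture when counted by list, set against 15278 named genes, of which 17.0% were lower by 2-fold or more and 21.4% higher by 2-fold or more. Each gene takes its brightest probe. Partners of the chains at the B cell surface were lower. Of 4 measured genes of the surrogate light chain and receptor partner list (Vpreb2 and Igll1 were below background on both arrays), 3 were at least 2-fold lower, and the median was -4.47. Vpreb3, a chaperone of B cell receptor assembly, had 460 in S100A4-positive cells and 31478 in S100A4-negative cells (-5.46). Cd79a and Cd79b, the signalling chains of the B cell receptor, were at -6.14 and -3.48, and Vpreb1 at a bound of -0.80.

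In the list for rearrangement, class switching and hypermutation, 6 of 12 measured genes were at least 2-fold lower and 1 was higher, with a median of -1.12. Exo1, Polh, Lig4 and Msh6, which repair or copy DNA in these steps, were at -4.48, a bound of -3.38, -2.93 and -2.12, and Ung, a uracil glycosylase, at 0.30. Dntt, which adds bases at segment joints in developing lymphocytes, was the higher one, with 5514 in S100A4-positive cells and 90.6 in S100A4-negative cells (94.5-fold). Rag1 and Rag2, the recombinase genes, were below background on both arrays.

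Of 12 factors for immunoglobulin transcription, 8 were at least 2-fold lower and 2 higher, with a median of -1.73. Pou2af1, the coactivator of octamer-bound immunoglobulin promoters, was 103-fold lower, Pax5 at least 102-fold lower (-3.43 at another probe), Ebf1 at -5.09 (-6.19 at another probe), Pou2f2 at -3.64 (-1.86 at another probe) and Tcf3 at -2.40 (-1.70 at another probe). The higher ones were Ell2 (2.03, but 0.54 at another probe), an elongation factor that favours the secreted heavy chain, and Spi1 (1.88). In the assembly and secretion list 3 of 12 were lower, Derl3 (-4.23), Mzb1 (-2.76) and Txndc5 (-1.27), and 2 were higher, Sec11c (1.66) and Ssr4 (1.43), with a median of -0.14. The chaperone genes Hspa5 (BiP) and Hsp90b1, which fold antibody chains and many other proteins, were at 0.76 and -0.14.

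Receptors for antibody went both ways. Of 10 measured, 2 were at least 2-fold lower, the IgM receptor Fcmr (-6.19) and the low-affinity IgE receptor Fcer2a (-5.33), and 5 were higher, with a median of 1.53. Those 5 were the IgG receptors Fcgr1 (at least 41.5-fold), Fcgr3 (4.46, 2.60 at another probe) and Fcgr4 (4.40), their signalling chain Fcer1g (4.14) and the neonatal receptor Fcgrt (2.11). Pigr, which carries polymeric IgA and IgM across epithelium, was at 0.95, and at -0.19 at another probe. Fcamr and Fcer1a were below background on both arrays.

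Markers of B cells and epithelium were lower, those of phagocytes higher, and those of plasma cells and T cells went both ways. All 12 B cell markers were lower by 2-fold or more, at a median of -5.41 and a summed signal of 6375 in S100A4-positive cells and 230705 in S100A4-negative cells, Pax5 being the 1 not above background in S100A4-positive cells. The 10 plasma cell markers were divided, 6 lower and 3 higher, with a median of -1.57 and sums of 20526 in S100A4-positive cells and 78640 in S100A4-negative cells. Those higher were Ell2, Sdc1 (1.45) and Prdm1 (1.42), while Xbp1 was at 0.60 and Irf4 at -1.96. T cell markers were lower in 5 of 8 and higher in 1, with sums of 16372 in S100A4-positive cells and 51869 in S100A4-negative cells. Epithelial markers were lower in 7 of 8 (602 in S100A4-positive cells, 15338 in S100A4-negative cells), with Krt19 and Muc2 not above background in S100A4-positive cells. Phagocyte markers were higher in 8 of 8, with sums of 65505 in S100A4-positive cells and 2969 in S100A4-negative cells and Mertk not above background in S100A4-negative cells. The part of the cell makeup of the fractions in the immunoglobulin differences was not tested.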

How the data were processed

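Total RNA from 1 S100A4-positive and 1 S100A4-negative sample was amplified and labelled with Cy3, per the labels' protocols, and hybridised to 1-colour Agilent arrays of design 74809. The deposited scanner tables hold 1 processed signal intensity per spot, background-subtracted by Agilent Feature Extraction 10.7.1.1, per the file headers (the submitters' processing notes name 9.5.1.1). The authors' deposited value table was used as an alternative.

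Control and outlier spots (80 on the S100A4-positive and 138 on the S100A4-negative array, 0 of them among the immunoglobulin probes) were left out. The log2 signals were centred on the 75th percentile of each array (287.3 on the S100A4-positive and 445.9 on the S100A4-negative array) and replicate spots averaged (Python 3.11.15, pandas 2.3.3, numpy 2.4.6). Single probes were compared, with no test, since 1 array per group leaves no residual degrees of freedom. Lists took 1 probe per gene. The number of arrays limits the precision. Alternatives were normexp (offset 50) and quantile normalization in limma 3.58.1 (R 4.3.3), other scalings, filters, bounds, 1 value per gene symbol and the deposited table. The steps were tested on simulated data. The members, lists and rule for named genes were chosen with earlier results of these data known. The rule names every readable heavy constant, lambda and joining chain probe and, of the heavy and kappa variable probes, the 5 with the highest mean log2 signal over both arrays and the 5 highest and lowest differences read on both arrays. Some genes of the lists are counted but not reported by name here.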

Additional observations from a re-analysis of the deposited data

How the results depend on the processing

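The 8 readable antibody chain probes were lower in S100A4-positive cells under each of 11 other settings that could include them. No paired analysis was possible because there is 1 array per group, and no replicate could be left out. Scaling on the E1A spike-in spots shifted all probes by -2.42 and no scaling by -0.63, so directions are relative to the 75th percentile. With spike-in scaling the median was -6.05 for all immunoglobulin probes and for the joining chain, -6.49 for heavy constant, -7.88 for heavy variable, -5.41 for kappa and -6.89 for lambda. The lists for rearrangement, surrogate light chain, transcription and assembly then came to -3.54, -6.89, -4.15 and -2.56, and that for antibody receptors turned to -0.89. With no scaling these values were -4.26, -4.26, -4.70, -6.09, -3.62 and -5.11 for the probes, and -1.75, -5.11, -2.36, -0.77 and 0.89 for the lists. Normexp correction, which shifted all probes by 0.11, gave -2.93 for heavy constant, -4.48 for heavy variable, -1.48 for kappa, -4.17 for lambda, -4.06 for the surrogate light chain list and 1.26 for the receptor list. Quantile normalization and the deposited table, which shifted all probes by -0.14 each, both gave -4.34 for heavy constant. Over probes above background on both arrays the median was -3.26 for all and for heavy variable, -1.78 for kappa, and -0.85, -5.46 and 0.95 for the rearrangement, surrogate light chain and receptor lists. With no filter on dim probes all 15 had a median of -1.42, 1 was at least 2-fold higher, heavy variable was at -3.26, lambda at -1.91, and kappa turned to 0.30, as 3 of its 5 probes are then background signal, while the lists were at -0.85, -2.16 and 0.80. Measured values in place of bounds gave -4.11 for kappa. With 1 probe per gene symbol, the brightest, the median was -3.91 for all and -6.72 for heavy constant, and with the median over a symbol's probes it was -3.91 for all, -4.53 for heavy constant, -7.66 for heavy variable and 1.24 for the receptor list. The 75th percentile over probes read on both arrays moved 0 of 44 values by more than the error. Another 2 groupings were chosen after seeing the data. Without Iglon5 the median was -3.91, and with the Igh-VJ558 heavy chain complex probe counted as constant, heavy constant was at -3.26 and heavy variable at -7.66.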
